A study of Drosophila melanogaster with 15 samples.

Results

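The genes examined here encode the proteins of the cytosolic ribosome of Drosophila melanogaster. They were taken from the symbols of the count files as every symbol that starts with RpL, RpS or RpLP followed by a digit, together with sta, the gene of the small-subunit protein RpSA. The rule gave 93 of the 15682 symbols, and each of the 93 had at least 1 count. By symbol alone, 50 were assigned to the large (60S) subunit, 4 to the stalk of the large subunit and 39 to the small (40S) subunit. Whether members named -like are parts of the ribosome was not tested. The rule used only symbols and the presence of a count, and it was set with earlier results of these data known.

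The study sequenced RNA of dissected tissue that its labels call skeletal muscle, to follow the secreted BMP-family ligand Decapentaplegic (Dpp) made by muscle. Each of 5 groups had 3 libraries, all in the w1118 strain background: dpp RNAi construct 1, dpp RNAi construct 2, control RNAi, dpp overexpression and control. The labels give neither the driver of the constructs, nor the age of the flies, nor whether libraries came from separate animals, so p-values measure only the spread between these samples. The treatment label reads RNAi for every library, and groups were taken from the titles.

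The ribosome joins amino acids into protein. The 40S subunit binds the messenger RNA and checks the codon, the 60S subunit holds the centre that forms the peptide bond, and the acidic stalk proteins recruit the elongation factors. One copy of most ribosomal proteins enters each ribosome, so their mRNAs are usually kept at similar levels. In Drosophila, loss of 1 gene copy of many of them gives the Minute phenotype of slow growth and thin bristles. Growth signals that act through Tor and Myc raise ribosome production in several tissues. Some ribosomal proteins have a second gene copy, and several of these copies are known from testis or ovary.

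Gene counts per library summed to between 11244899 and 56290808. The targeted gene dpp had 66.8 ± 13.4 CPM (counts per 1e+06 gene counts after TMM scaling, mean ± SD, n = 3 here and in every group) with dpp overexpression, against 33.5 ± 1.61 CPM in control. With construct 1 it stood at 32.0 ± 1.52 CPM and with construct 2 at 31.3 ± 2.2 CPM, against 31.5 ± 3.02 CPM in control RNAi. A reduction was thus not detected, and both groups are named by their labels only. The library codes contain a number that is the same in both construct groups, another in control RNAi, and yet another, common to both, in the dpp overexpression and control libraries. Should it stand for a batch, then batch and treatment cannot be told apart when a construct is set against control RNAi, or control RNAi against control. Marker mRNAs went partly against the tissue label: the 12 photoreceptor markers summed to 67950 to 89610 CPM over the 15 libraries, and the 17 muscle markers to 4358 to 13210 CPM. The libraries therefore measure ribosomal protein mRNA over mixed tissue, in which fewer cells of a type and less RNA per cell cannot be told apart.

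Ribosomal protein mRNAs were among the abundant mRNAs in every library. Among the 10668 genes that passed the filter on low counts, the median passing member stood at percentile 97.6 in the lowest library. Of the 93 members, 86 passed that filter. The 7 that did not were RpL10Aa, RpL22-like, RpL37b, RpS10a, RpS19b, RpS28-like and RpS28a, each a rare copy of an abundant member, with at most 11 counts in any library. The 66 members without a copy in the files ran from 280.4 CPM (RpS21) to 1826 CPM (RpL5), with a median of 677 CPM. Read per kilobase of coding sequence, the interquartile range of these 66 was 1125 to 1706 CPM per kb, a span of 1.52-fold. Lengths come from the Ensembl annotation of BDGP6, while the counts were made on dm3.

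The most abundant members per coding kilobase were RpL41 (8799 CPM per kb), RpS29 (4828 CPM per kb) and RpS28b (3140 CPM per kb). All of them encode very short proteins, and with the length of the canonical transcript in place of the coding length RpL41 remained in rank 1 while RpS29 had rank 35 and RpS28b rank 59. Among the least abundant members that passed the filter were RpLP0-like (19.9 CPM per coding kb) and RpL7-like (37.3 CPM per coding kb), each the rarer gene of a pair set by name.

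The 93 members together took 5.97 ± 0.248% of gene counts with dpp overexpression, against 5.33 ± 0.0936% in control. The single dpp overexpression libraries had 5.82, 5.83 and 6.25%, against 5.23, 5.35 and 5.41% in control. All 3 dpp overexpression libraries thus lay above all 3 control libraries, and replicate 3 stood above its 2 partners. That replicate was also unlike its partners over all genes. It had 25537295 gene counts, against 56290808 and 49626406, and 51.7 CPM of dpp, against 71.6 and 77.2 CPM. The share was 5.74 ± 0.191% with construct 1 and 5.52 ± 0.205% with construct 2, against 5.45 ± 0.25% in control RNAi, where the groups overlapped. No test is given for these sums, since 3 against 3 libraries cannot go below p = 0.1 in an exact two-sided permutation test.

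The subunits did not keep the same proportion. Counts of 60S and stalk members were 1.487 ± 0.0119 times those of 40S members with dpp overexpression, against 1.537 ± 0.00572 in control. The 3 dpp overexpression libraries had ratios of 1.474 to 1.498, against 1.531 to 1.543 in control and 1.545 to 1.573 over the 9 libraries of the other 3 groups. Without RpL15 and RpL23, the ratio was 1.431 ± 0.00752 with dpp overexpression, against 1.46 ± 0.00569 in control, and the groups still did not overlap.

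**Figure D1:**
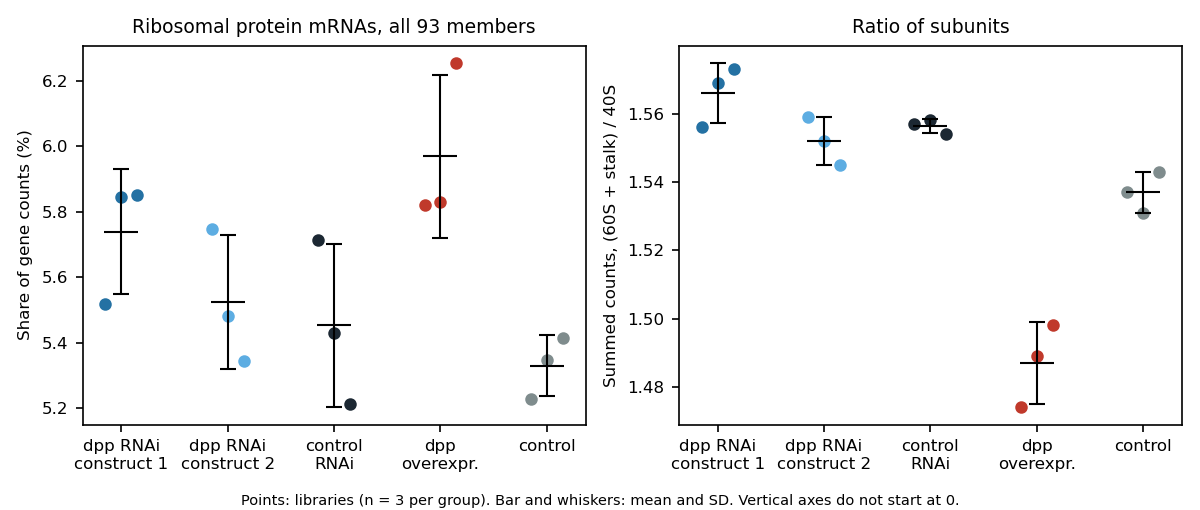
Left, ribosomal protein mRNAs as a percentage of gene counts; right, summed counts of 60S and stalk members over those of 40S members. Points are libraries, bars and whiskers mean and SD (n = 3). The dpp overexpression libraries have shares of 5.82 to 6.25%, against 5.23 to 5.41% in control, and ratios of at most 1.498, below every other library.

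With dpp overexpression, many ribosomal protein mRNAs were moderately higher than in control. Of the 86 tested members, 41 rose and 2 fell (edgeR quasi-likelihood test, p adjusted by Benjamini-Hochberg over the whole table of 10668 tested genes, called under 0.05). Over all tested genes, 13.4% rose and 16.2% fell. The median log2 fold change was 0.18 over the members and -0.01 over all tested genes, and 80 of 86 members had a positive value. Set against each member's mean over all 15 libraries, 46, 43 and 75 of 86 members were higher in dpp overexpression replicates 1 to 3. In control replicates 1 to 3 it was 3, 10 and 13. Construct 1 over control also had 41 members that rose and a median of 0.18, where 12.8% of all tested genes rose. In 65 members all dpp overexpression libraries lay above all control libraries, and in 3 all lay below, where 20.2% and 25.5% of all tested genes did so. Both subunits took part: 21 of 47 tested 60S members rose with a median of 0.18, and 19 of 35 tested 40S members rose with a median of 0.19, while 1 of each fell. Of the 41 that rose, 26 were called in each of 6 alternative fits and without each single library of the pair. The count was 26 without control replicate 1 and 29 without dpp overexpression replicate 3. Over all tested genes, 1426 of 10668 rose with every library in the fit. Without control replicate 1 it was 1113 of 10746, and without dpp overexpression replicate 3 it was 1610 of 10844. Leaving out that replicate thus lowered the count of members while the count over all genes went up.

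**Figure D2:**
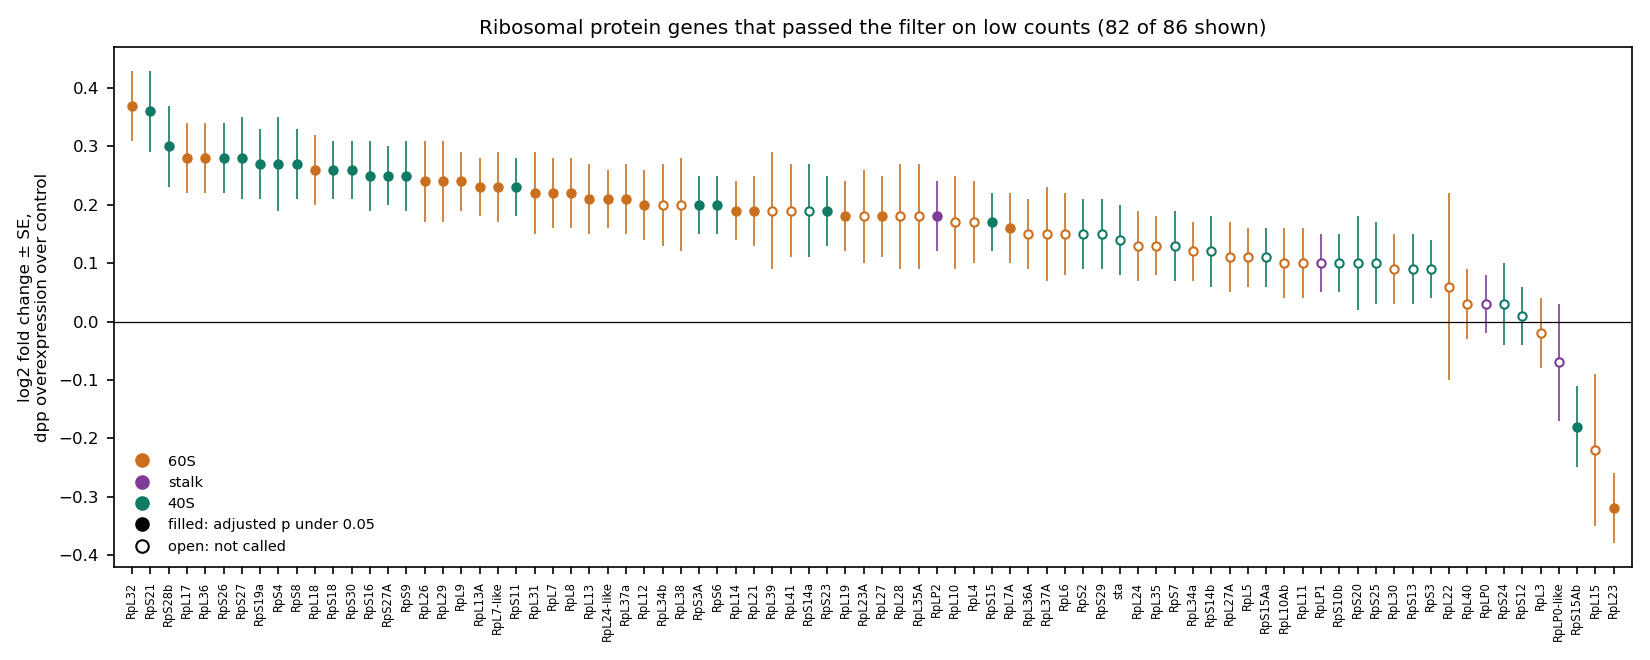
Log2 fold change of dpp overexpression over control for 82 of the 86 tested members in rank order, with SE as whiskers. Colours give the subunit and filled points an adjusted p under 0.05. Most points lie above 0, and the low end holds RpL15 and RpL23.

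RpL32, a 60S protein whose mRNA is widely used as a constant reference in quantitative PCR of flies under the name rp49, had the largest rise. Its level was 532, 559 and 581 CPM with dpp overexpression, against 427, 439 and 429 CPM in control. The groups were far apart compared with their spread, and the fold was 1.29 (log2 fold change 0.37 ± 0.06 SE, edgeR adjusted p = 0.000322). RpL32 was not high with dpp overexpression alone. It had 560.0 ± 36.5 CPM with construct 1, 525.9 ± 26.1 CPM with construct 2 and 488.9 ± 32.7 CPM in control RNAi. It was also called higher with construct 1 over control RNAi and in control RNAi over control, calls that some alternative fits lost. RpS21, a small 40S protein, had 310, 282 and 352 CPM with dpp overexpression, against 237, 249 and 251 CPM in control (0.36 ± 0.07, adjusted p = 0.0017). RpS28b, also of the 40S subunit, had 622, 637 and 751 CPM with dpp overexpression, against 533, 538 and 566 CPM in control (0.30 ± 0.07, adjusted p = 0.00365). In both, replicate 3 was the highest of the dpp overexpression libraries, and none of them overlapped control.

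Further members among the 10 largest called changes were RpS27 and RpS26 of the 40S subunit and RpL36 and RpL17 of the 60S subunit, each with a log2 fold change of 0.28. RpS6, the 40S protein that S6 kinase phosphorylates downstream of Tor, had 838, 820 and 870.2 CPM with dpp overexpression, against 721, 741 and 739 CPM in control (0.20 ± 0.05, adjusted p = 0.00531). sta did not pass the test, with 934, 976 and 1014 CPM with dpp overexpression, against 859, 904 and 892 CPM in control (0.14 ± 0.06, adjusted p = 0.117). Its libraries did not overlap, although the difference was small.

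The stalk proteins differed among themselves in this comparison. RpLP2, one of the acidic stalk proteins, rose (0.18 ± 0.06, adjusted p = 0.0464), but not in the fit with a replicate block, nor without dpp overexpression replicate 2 or 3, nor without control replicate 1 or 2. RpLP1, its partner in the acidic dimer, had 0.10 ± 0.05 (adjusted p = 0.177). RpLP0, the base on which the stalk dimers sit, had 889, 908 and 851 CPM with dpp overexpression, against 843, 874 and 871 CPM in control. Its log2 fold change was 0.03 with a 95% interval of -0.07 to 0.14, and the groups overlapped.

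RpL23, a 60S protein, went against the majority. It had 549, 524 and 590.3 CPM with dpp overexpression, against 673, 696 and 704 CPM in control, a fall to 0.802 of the control level (log2 fold change -0.32 ± 0.06, adjusted p = 0.00105). The call held in all 6 alternative fits and without each single library, and every dpp overexpression library was lower than every other of the 15 libraries except control RNAi replicate 3 at 588 CPM, which lay between them. In the BDGP6 annotation an exon of RpL23 overlaps inaD on the opposite strand, the gene of a photoreceptor scaffold protein. inaD averaged 748 CPM with dpp overexpression, against 743 CPM in control (0.01, adjusted p = 0.975). Whether counting used the strand is not given in the sources used here.

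RpL15, another 60S protein, differed widely among the dpp overexpression libraries. It had 621, 651 and 996 CPM with dpp overexpression, against 885, 871 and 879 CPM in control. Replicates 1 and 2 of dpp overexpression were below all other 13 libraries and replicate 3 above control, so the test missed (-0.22 ± 0.13, adjusted p = 0.229). Without replicate 3 the value was -0.46 with an adjusted p of 2.97e-06.

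**Figure D3:**
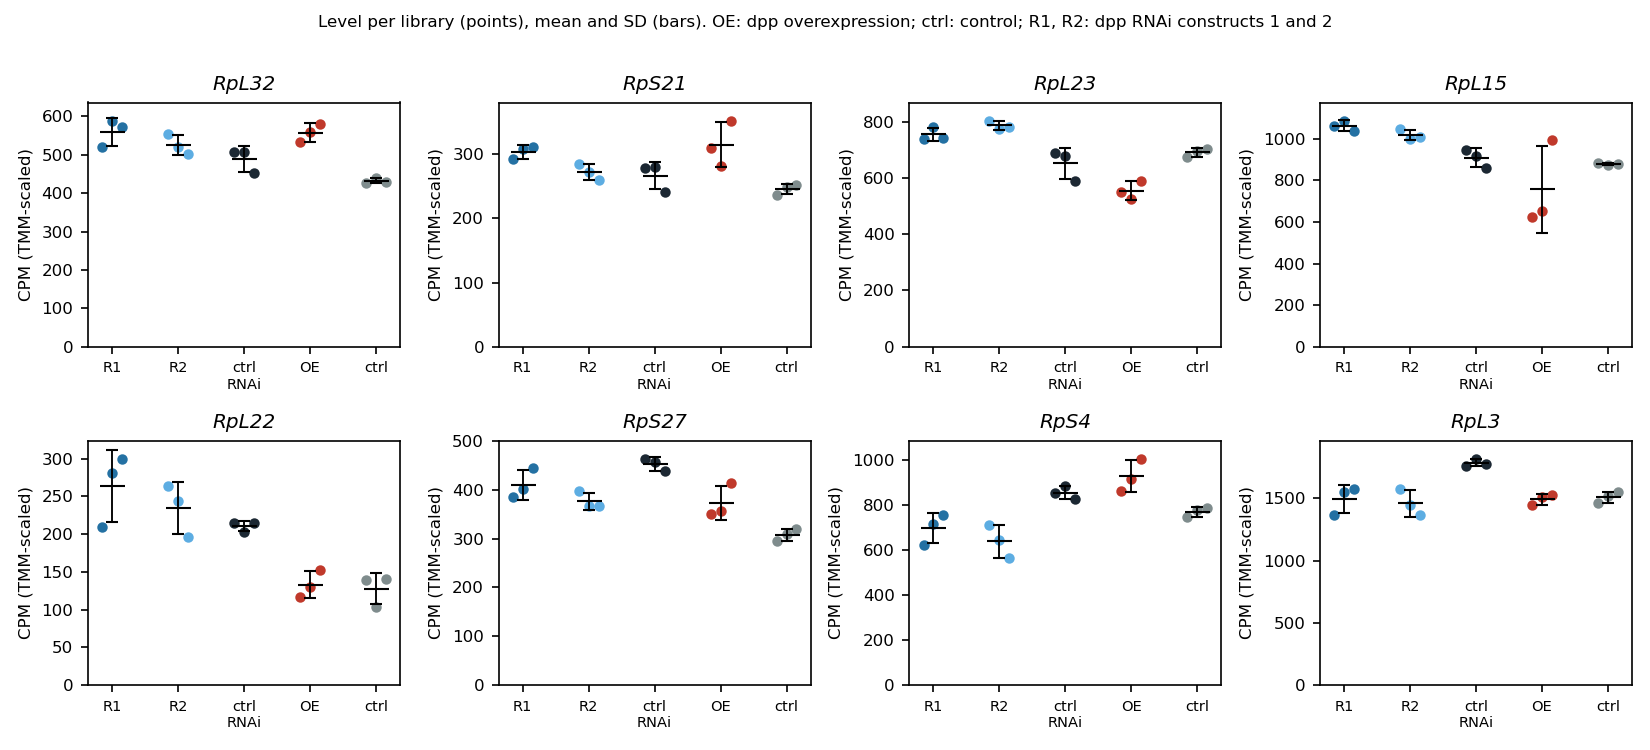
Level in TMM-scaled CPM of 8 members in each library (points), with mean and SD (n = 3); axes start at 0. RpL32 and RpS21 are higher and RpL23 lower with dpp overexpression (OE) than in control. RpL15 divides the dpp overexpression libraries (621, 651 and 996 CPM), RpS4 has its lowest means in the construct groups (R1, R2), and RpS27 and RpL3 have their highest means in control RNAi.

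Genes that make or regulate ribosomes were counted beside the members. Of 28 ribosome biogenesis genes, 7 rose and 1 fell with dpp overexpression, with a median of 0.12. Among those that rose were Fib, the rRNA methyltransferase fibrillarin (14.6 against 11.1 CPM, 0.40 ± 0.08, adjusted p = 0.00134), nclb (0.36 ± 0.08, adjusted p = 0.00245) and nop5 (0.35 ± 0.08, adjusted p = 0.00396), which belongs with fibrillarin to the box C/D particle. Of 17 growth and translation control genes, 6 rose and 2 fell. Thor, the 4E-BP repressor of initiation, had the largest value (0.50 ± 0.05, adjusted p = 2.09e-06), S6k had 0.27 ± 0.05 (adjusted p = 0.000355) and dm, the fly Myc, 0.29 ± 0.08 (adjusted p = 0.00985). Members of this list act in both directions on growth, since Thor, foxo, gig and Tsc1, which also rose, restrain it.

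Of 6 elongation factor genes, Ef1beta rose (0.44 ± 0.06, adjusted p = 2.72e-05) and Ef1alpha100E fell (-0.23 ± 0.06, adjusted p = 0.00711). Of 18 initiation factor genes, 2 rose and 1 fell. The proteins of the mitochondrial ribosome are encoded by a separate set of nuclear genes. Of 71 tested members of that set, 7 rose and 1 fell, with a median of 0.01, beside 0.18 for the cytosolic members. Rack1, a scaffold protein on the 40S subunit that the rule does not cover, had 0.14 ± 0.06 (adjusted p = 0.0614). Of the cell type markers, 3 of 17 for muscle rose and 2 fell, 2 of 12 for photoreceptors rose and 1 fell, and 1 of 6 for neurons rose and 1 fell, with none of them listed at 0. Their summed levels overlapped between the groups: muscle markers summed to 9393 to 11340 CPM with dpp overexpression, against 9027 to 10220 CPM in control, and photoreceptor markers to 69000 to 81680 CPM with dpp overexpression, against 74170 to 81430 CPM in control. Neuron markers summed to 2761 to 3581 CPM with dpp overexpression, against 3114 to 3215 CPM in control. Their part in the result was not tested.

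Against control RNAi, the libraries labelled dpp RNAi showed fewer called members, in both directions. With construct 1, 17 of 86 members rose and 3 fell, where 13.1% and 12.6% of all tested genes did so, and the median log2 fold change was 0.07. In 26 members all construct 1 libraries lay above all control RNAi libraries and in 6 all lay below, where 20.1% and 21.9% of all tested genes did so. With construct 2, 14 rose and 6 fell, where 21.0% and 20.3% of all tested genes did so, and the median was 0.03. Here 16 members lay wholly above and 12 wholly below control RNAi, where 27.4% and 26.2% of all tested genes did so. With construct 2 both the called and the separated members were thus a smaller share than over all genes. The number that fell with construct 2 depended on scaling: the split was 13 against 10 with RLE scaling and 14 against 11 with DESeq2. The counts over all 10668 tested genes moved the same way. They were 2244 higher and 2162 lower with TMM scaling, 2123 and 2312 with RLE scaling, and 2069 and 2308 with DESeq2. Both comparisons use the same 3 control RNAi libraries, so their values stand side by side and are not independent. Without control RNAi replicate 3 the number that rose was 7 with construct 1 and 6 with construct 2. It was 9 with construct 1 without its replicate 2, and 8 with construct 2 without its replicate 1. Over all tested genes, 1085 of 10744 rose with construct 1 and 1844 of 10744 with construct 2 without control RNAi replicate 3. Without construct 1 replicate 2 it was 1298 of 10841, and without construct 2 replicate 1 it was 1754 of 10849.

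RpS4, a 40S protein, was lower under both labels. It had 623, 715 and 755 CPM with construct 1 and 710.2, 643 and 562 CPM with construct 2, against 854, 883 and 824 CPM in control RNAi. No construct library reached the control RNAi libraries, and the log2 fold changes were -0.29 ± 0.09 (adjusted p = 0.0191) and -0.42 ± 0.09 (adjusted p = 0.0011). The call with construct 1 was lost without its replicate 1 and without control RNAi replicate 2, while that with construct 2 held without each single library. RpL3, which lies near the peptidyl transferase centre of the 60S subunit, had 1365, 1547 and 1574 CPM with construct 1 and 1577, 1445 and 1363 CPM with construct 2, against 1760, 1817 and 1779 CPM in control RNAi. The groups were separate here too (-0.26 ± 0.06, adjusted p = 0.00838, and -0.29 ± 0.06, adjusted p = 0.00225), while control libraries with 1462, 1520 and 1547 CPM lay in the range of the constructs. RpS24 of the 40S subunit fell with both (-0.25 and -0.23), but its calls were lost without single libraries. RpL14, RpL40, whose protein is made as a fusion with ubiquitin, and RpS27 fell with construct 2.

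Among the members that rose, RpL10, which completes the 60S subunit late in its assembly, had 956, 998 and 988 CPM with construct 1 and 989.5, 907 and 981 CPM with construct 2, against 858, 665 and 831 CPM in control RNAi (0.32 ± 0.08, adjusted p = 0.00579, and 0.29 ± 0.08, adjusted p = 0.00682). RpL29, a small 60S protein, had 0.31 ± 0.07 and 0.34 ± 0.07 (adjusted p = 0.00496 and 0.00149). RpLP2 of the stalk had 0.28 ± 0.06 and 0.33 ± 0.06 (adjusted p = 0.00433 and 0.000927). These 3 rose under both labels and held without each single library. RpS16, RpS26, RpL38 and RpL34b also rose under both labels, by 0.16 to 0.32, but each lost its call under 1 label or both without single libraries. For RpS16 and RpS26 this was the case with construct 2, for RpL38 with construct 1 and for RpL34b with both. The RpS26 call with construct 2 was also lost with RLE scaling, no filter or the replicate block, and the RpL38 call with construct 1 with no filter. RpL23, which fell with dpp overexpression, rose with construct 1 (0.21 ± 0.06, adjusted p = 0.0202) and with construct 2 (0.27 ± 0.06, adjusted p = 0.00284). The call with construct 1 was lost without its replicate 2 and without control RNAi replicate 3, while that with construct 2 held without each single library. Against control in place of control RNAi, RpL23 was called with construct 2 only.

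In these comparisons the muscle markers moved strongly. They summed to 7708 to 12090 CPM with construct 1 and 9518 to 13210 CPM with construct 2, against 4358 to 4492 CPM in control RNAi, and 14 of 17 rose with each construct. Mitochondrial ribosomal protein genes rose in 47 of 71 tested genes with construct 1 and in 44 with construct 2, with medians of 0.32 and 0.25. Neuron markers summed to 4019 to 4129 CPM with construct 1 and 3477 to 4090 CPM with construct 2, against 4474 to 4581 CPM in control RNAi. Of the 12 photoreceptor markers, 4 fell with construct 1 and 8 with construct 2, and 0 rose with either. They summed to 81090 to 89610 CPM with construct 1 and 67950 to 76850 CPM with construct 2, against 79600 to 84080 CPM in control RNAi, so that the construct 2 libraries lay below control RNAi. The 6 fat body markers summed to 8201 to 9594 CPM with construct 1 and 10430 to 12420 CPM with construct 2, against 9198 to 10710 CPM in control RNAi, and 1 rose and 1 fell with each. The part of this difference in tissue markers in the members' changes was not tested.

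With the control libraries in place of control RNAi, 41 members rose and 0 fell with construct 1, where 12.8% and 11.7% of all tested genes did so. With construct 2, 34 rose and 1, RpS4, fell (-0.27, adjusted p = 0.0212), where 18.3% and 17.9% did so. The direction and number of called members in the construct groups thus depended on which control they were set against. Between the constructs themselves, 0 of 86 members were called in either direction by edgeR and by DESeq2, where 5.67% of all tested genes were higher and 6.36% lower with construct 1. At an unadjusted p under 0.05 there were 2 members, RpL13 and RpL37A, with log2 values of 0.16 and 0.18 for construct 1 over construct 2. Of all 10668 tested genes, 2868 had such a p. All construct 1 libraries lay above all construct 2 libraries in 8 members and below in 1, where 14.9% and 16.6% of all tested genes did so.

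The control RNAi and control groups also differed. With control RNAi over control, 27 members rose and 1 fell, where 20.9% and 24.3% of all tested genes did so, with a median log2 fold change of 0.12 over the members and -0.04 over all tested genes. In 42 members the control RNAi libraries lay wholly above control and in 2 wholly below, where 27.5% and 34.7% of all tested genes did so. These counts depended on scaling: with scaling to total gene counts, which moved the median of all tested genes to -0.134, 10 members rose and 4 fell. In that fit 1613 of all 10668 tested genes rose and 4213 fell. RpL22, a 60S protein that binds RNA, had 215, 203 and 215 CPM in control RNAi, against 139, 104 and 140.2 CPM in control, a 1.65-fold difference (0.72 ± 0.16, adjusted p = 0.0024). RpS27, a 40S protein with a zinc finger, had 464, 458 and 438 CPM in control RNAi, against 295, 310 and 319 CPM in control (0.56 ± 0.07, adjusted p = 1.35e-05). In both, the groups were separate. RpL22 had 263.9 ± 47.5 CPM with construct 1 and 234.8 ± 34.8 CPM with construct 2, and with dpp overexpression it was at 133.2 ± 17.9 CPM, a level that overlapped control.

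RpS20 was the third largest of these differences (0.42 ± 0.08, adjusted p = 0.000521), and further ones among the 10 largest were RpL28, RpS26, RpL23A, RpL10Ab, RpS15Aa and RpS10b at 0.26 to 0.28. Of the 27 members that rose, 10 were called in all 6 alternative fits and without each single library, RpL22, RpS27 and RpS20 among them. Beside them, the muscle markers were lower in control RNAi (15 of 17 fell), neuron markers were higher (6 of 6 rose), 5 of 12 photoreceptor markers rose and 1 fell, and 39 of 71 mitochondrial ribosomal protein genes fell. Fat body markers summed to 9198 to 10710 CPM in control RNAi, against 4934 to 5880 CPM in control, and 3 of 6 rose. Their part in the members' differences was not tested.

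Over the 5 groups, control had the lowest mean for 60 of 86 members and the highest for 0, where it was lowest for 13.1% and highest for 17.9% of all tested genes. The highest mean was with dpp overexpression for 37 members and with construct 1 for 28, where these groups were highest for 27.8% and 11.5% of all tested genes.

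**Figure D4:**
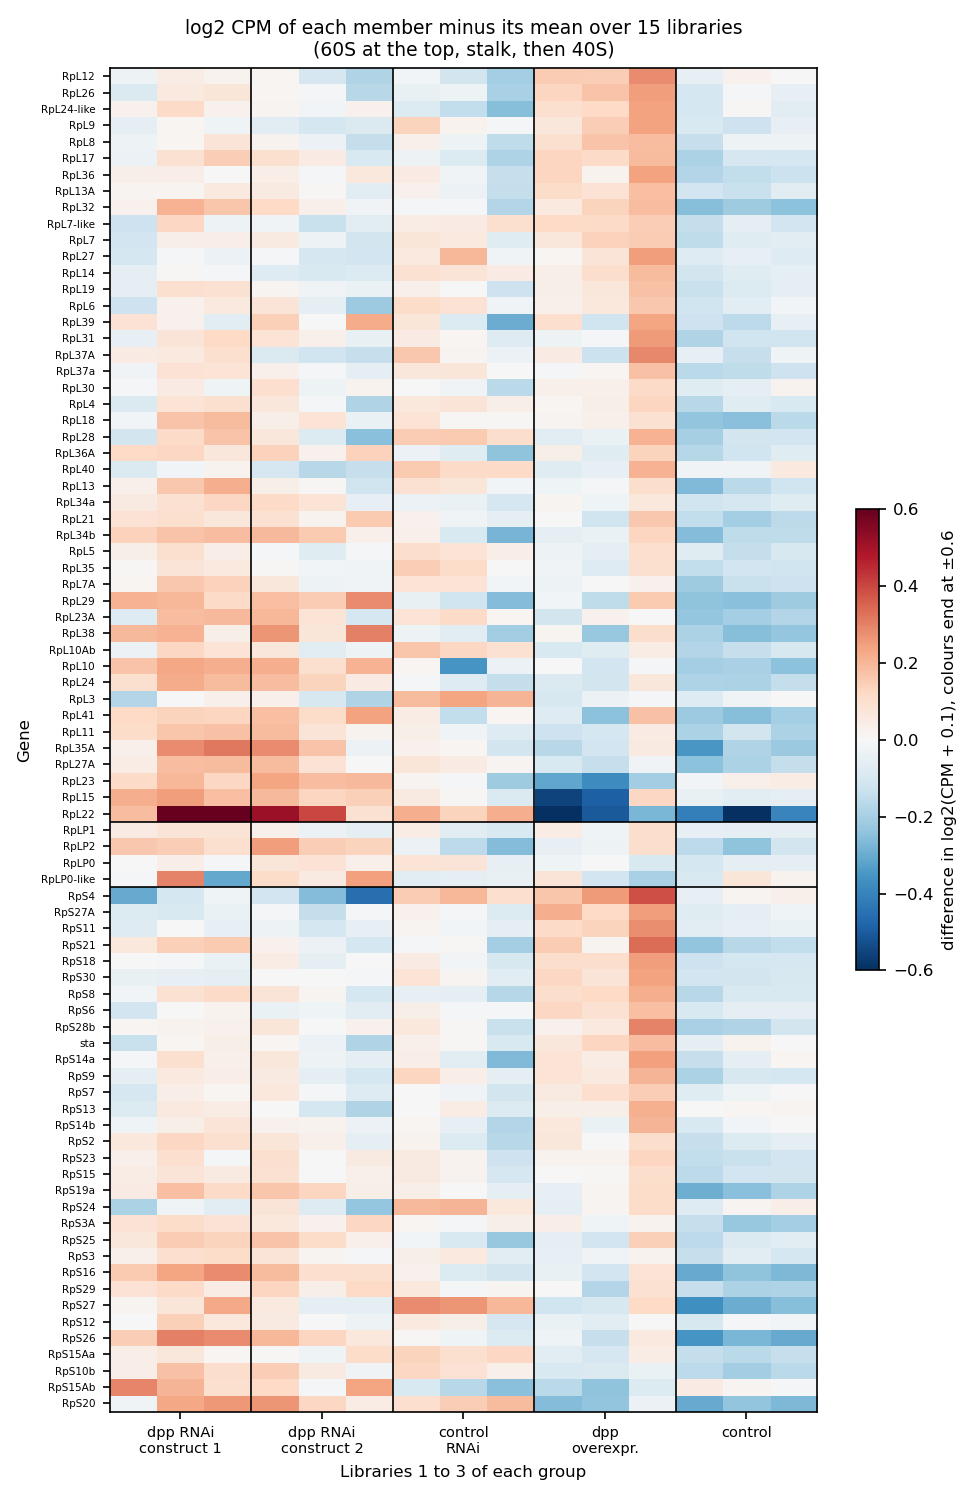
Log2(CPM + 0.1) of 82 of the 86 tested members in each of the 15 libraries, minus the member's mean over all libraries; red is higher and blue lower. The 3 control libraries are blue for most members, dpp overexpression replicate 3 is red for most, and RpL22, RpL15, RpL23 and RpS15Ab depart from the rest.

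The 14 pairs of an abundant gene and a copy with the same name and a suffix joined 27 members. Near-identical copies can share reads, and how the counting divided them is not given in the sources used here, so these values are uncertain. In the counts summed over all libraries, RpS14b made up 29.4% of the RpS14 pair, RpL34a 21.8% of the RpL34 pair and RpL24-like 19.7% of its pair with RpL24. RpL24-like resembles a yeast protein, Rlp24, that acts in 60S assembly and is replaced there by the ribosomal protein. RpS15Ab was at 5.76%, RpL7-like at 3.24% and RpLP0-like at 1.66%. The 7 rarest copies were at 0.0204% or less.

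The share of RpS15Ab in its pair differed between groups. It made up 5.36 ± 0.0664% of the pair with dpp overexpression, against 6.46 ± 0.135% in control. With construct 1 the share was 6.43 ± 0.37% and with construct 2 6.13 ± 0.231%, against 4.80 ± 0.246% in control RNAi. The shares of each of these groups and its control did not overlap. As a level, RpS15Ab fell with dpp overexpression (33.9, 32.1 and 35.9 CPM, against 39.3, 38.4 and 37.8 CPM in control; -0.18 ± 0.07, adjusted p = 0.0493), a call lost in 5 of the 6 fits that leave out 1 library. Against control RNAi it rose with construct 1 (0.37 ± 0.07, adjusted p = 0.0011) and with construct 2 (0.29 ± 0.07, adjusted p = 0.00338), in each case also without any single library. Against control in place of control RNAi, it was called with neither construct. Its level was 43.6 ± 2.96 CPM with construct 1 and 41.3 ± 3.53 CPM with construct 2, against 38.5 ± 0.755 CPM in control. Its abundant partner RpS15Aa was called neither with dpp overexpression nor with the constructs against control RNAi (0.11, -0.08 and -0.09). RpS15Ab was also the member that fell in control RNAi relative to control (-0.19 ± 0.07, adjusted p = 0.0308), a call lost in 3 of the 6 alternative fits and in 5 of the 6 fits that leave out 1 library.

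**Figure D5:**
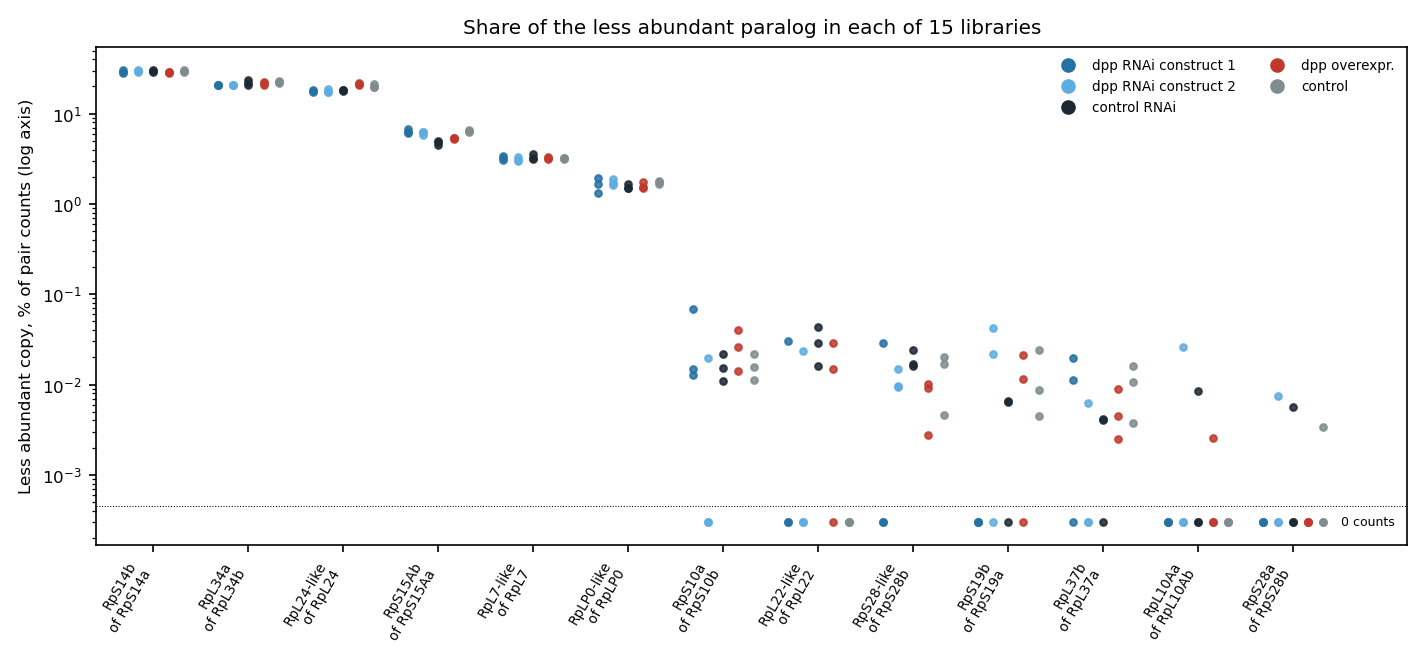
Share of the less abundant gene in the counts of 13 of the 14 pairs, in percent on a log axis, for every library, coloured by group; libraries without a count stand at the bottom. RpS14b, RpL34a and RpL24-like lie between 17.3 and 30.8% in every library, RpS15Ab between 4.53 and 6.84%, and the 7 rarest copies at 0.0679% or less.

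The 7 copies under the filter had 3 to 53 counts over all 15 libraries. RpS28a had 3 counts, 1 in each of 3 libraries, and RpL10Aa had 7 in 3 libraries. RpL22-like, known from testis, had 11 counts in 7 libraries beside 79742 for the pair, and none in control, where 3 counts in the shallowest library would be 0.0815 CPM before TMM scaling. The 8 testis markers summed to 3.60 to 5.74 CPM over all libraries, and the 8 germ-line markers to 5.54 to 5.99 CPM with dpp overexpression, against 5.38 to 6.21 CPM in control. These copies were tested in no comparison but in the fit without the filter. There, RpL22-like alone among them was called, in control RNAi over control, on 3, 1 and 2 counts in control RNAi, against 0 in each control library.

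The members lie on all major arms of the BDGP6 annotation: 19 on 2L, 21 on 2R, 14 on 3L, 23 on 3R, 15 on X and RpS3A on 4. With dpp overexpression, 8 of 18 tested members on 2L, 10 of 19 on 2R, 7 of 14 on 3L, 7 of 19 on 3R and 8 of 15 on X rose, and RpS3A rose as well (0.20 ± 0.05, adjusted p = 0.00463). Over all tested genes, 14.1% on 2L, 16.7% on 2R, 10.5% on 3L, 12.6% on 3R and 13.4% on X rose. The median log2 fold change was 0.15 on 2L and 0.17 to 0.19 on the other arms named with counts. On X, 0 of 15 members were called with either construct against control RNAi by edgeR or by DESeq2, and 1 with each had an unadjusted p under 0.05. Of all 10668 tested genes, on any arm, 4004 with construct 1 and 5271 with construct 2 had such a p. Over all tested genes on X, 10.7% rose and 13.9% fell with construct 1, and 17.3% rose and 21.5% fell with construct 2. Exons of 25 members overlap a gene on the opposite strand, and of these 10 rose and 1 fell with dpp overexpression, with a median of 0.17. Of the 61 tested members without such an overlap 31 rose and 1 fell, with a median of 0.19.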

How the data were processed

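RNA sequencing counts of 15 libraries were analysed. Each deposited file gives the authors' unnormalised read counts, all whole numbers, for 15682 gene symbols, and ends with 5 HTSeq summary lines, which held 14.48 to 20.93% of all entries and were left out. The submitters' processing notes name dm3 as the build, and BWA, STAR and HTSeq as tools; their versions, the annotation and the strand setting of counting are not given in the sources used here. No 2 libraries held identical counts, and replicates of each group differed by more than sampling noise. Chi-square of counts per degree of freedom was 60.64 and 52.08 between dpp overexpression replicate 3 and its partners. It was 5.22 to 19.4 in all other pairs of libraries within a group.

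In R 4.3.3 with edgeR 4.0.16, filterByExpr (minimum count 10) kept 10668 genes and left out 5014. A robust quasi-likelihood fit with TMM scaling covered all 15 libraries with 10 residual degrees of freedom. Every adjusted p in the text is from edgeR's quasi-likelihood test with Benjamini-Hochberg adjustment over all tested genes, called under 0.05, unless DESeq2 (1.42.0), an alternative, is named. On simulated counts for dpp overexpression against control, with 200 of 10668 genes changed, the fit recovered 89.7% of changes of 0.5 (log2) and 100% of changes of 1 and 2, and 5.39% of its calls were false. Changes as small as those of the members (median 0.18, at most 0.37 upward) were not simulated, so their recovery is not known. The simulation also held no library unlike its partners. CPM are TMM-scaled, SD is over 3 libraries, and ± after a log2 fold change is the SE. The limit for a count of 0 is 3 counts and covers counting error only, since PCR copies are not independent molecules. Gene lengths, arms and overlaps came from the BDGP6 annotation, matched by symbol and synonym, and no coordinates are printed. Python 3.11.15, pandas 2.3.3 and matplotlib 3.10.9 were used for summaries and plots.

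The members and gene lists were chosen with earlier results of these data known, and lists are described by counts and medians, with no test. Members named in full were those of each pair, the 10 called members of largest log2 fold change per comparison (5 where a direction had fewer), those called against the majority, sta, RpS6, RpL32, RpLP0, the 3 most and 3 least abundant per coding length, and those under the filter. Results for a few members that this rule would name are not reported here. RpL15, RpLP1 and RpL13 were named after their values were seen. Alternatives were RLE scaling, total gene counts, no filter, DESeq2, a fit on only the libraries compared, a replicate block, leaving out each library, control in place of control RNAi, and members without copies or opposite-strand overlaps. Same-numbered replicates did not pair, with correlations of their deviations from group means between -0.111 and 0.186 in the 5 comparisons. For the constructs over control in place of control RNAi, the correlations were between -0.014 and 0.246.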

Additional observations from a re-analysis of the deposited data

How the results depend on the processing

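Replicate numbers did not pair the libraries. With the replicate block, 38 members rose and 2 fell with dpp overexpression, 15 rose and 3 fell with construct 1, 14 rose and 6 fell with construct 2, 0 differed between the constructs, and 26 rose and 1 fell in control RNAi over control. Over all 10668 tested genes, 1403 rose and 1735 fell with dpp overexpression, 1391 and 1357 with construct 1, and 2236 and 2179 with construct 2. It was 698 and 731 between the constructs, and 2261 and 2621 in control RNAi over control. In fits of only the libraries compared with the block, an alternative chosen after seeing the data, the counts of members were 55 and 2, 16 and 3, 14 and 6, and 40 and 1 for the same comparisons against a control. Over all tested genes, these fits gave 1624 and 1558 of 10691 with dpp overexpression and 1215 and 1199 of 10119 with construct 1. They gave 2164 and 1955 of 10205 with construct 2, and 2635 and 2267 of 10382 in control RNAi over control.

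With dpp overexpression, 1 member fell, not 2, with RLE scaling, with no filter, among members without a copy, and among members without an opposite-strand overlap (the last chosen after seeing the data). Leaving out single libraries gave 26 to 46 that rose and 1 to 4 that fell. With construct 1 against control RNAi, DESeq2 gave 5 that fell, and leaving out libraries gave 7 to 17 that rose and 1 to 3 that fell. With construct 2, RLE scaling and no filter gave 10 that fell and DESeq2 11. Over all tested genes, 2312 of 10668 fell there with RLE scaling, 2285 of 14567 with no filter and 2308 of 10668 with DESeq2. The number that rose was 9 among members without a copy and 9 among those without an overlap, and leaving out libraries gave 6 to 14 that rose and 5 to 9 that fell. Against control in place of control RNAi, 41 rose and 0 fell with construct 1 and 34 rose and 1 fell with construct 2. There, values turned to 0.19 for RpL10Ab and 0.19 for RpS15Aa with construct 1, and to 0.29 for RpS27, 0.24 for RpS10b and 0.18 for RpS15Aa with construct 2. Between the constructs, a fit of only the libraries compared gave 1 higher member, RpL37A, and leaving out libraries gave 0.

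In control RNAi over control, 52 members rose in a fit of only the libraries compared, 45 with DESeq2 and 10 with total gene counts, where 4 fell. Over all tested genes, 2892 of 10382 rose in the fit of only the libraries compared and 2544 of 10668 with DESeq2. With total gene counts 1613 of 10668 rose and 4213 fell. No member (0) fell with RLE scaling, no filter, DESeq2 or among members without a copy, and leaving out libraries gave 20 to 34 members that rose and 0 to 1 that fell. With the summary lines in the total, the members' share was 4.93% with dpp overexpression against 4.55% in control, and 4.70% with construct 1 and 4.51% with construct 2 against 4.41% in control RNAi. Without the 100 genes of highest mean, 6 of them members, it was 6.61% against 5.94%, and 6.48% and 6.19% against 6.10%. Except for the change of scale that the total itself sets, the cause of these shifts was not tested. Of the values named for single genes or pairs, 1037 kept direction and side of the threshold under alternatives other than a left-out library, 31 lost a call, 42 gained one, 5 turned sign with a call, and 34 were uncalled values that changed sign or medians that moved beyond the spread between libraries. With a library left out, 811 kept both, 56 lost a call, 7 gained one and 44 were such changes without a call. Depth limits the rare copies most, and 3 libraries a group limit every p.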
